A study of Mus musculus with 39 samples.

Results

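Voltage-gated and related ion channels were examined in mouse parathyroid glands, as the 137 protein-coding genes whose symbols name a potassium, voltage-gated calcium, voltage-gated sodium or hyperpolarization-activated channel subunit (Kcn, Cacna, Cacnb, Cacng, Scn and Hcn symbols followed by a number). They are 137 of 27179 genes in the count table, with 93 potassium, 26 calcium, 14 sodium and 4 hyperpolarization-activated channel genes in 23 families. The choice rested on names alone, and 4 non-coding genes with such symbols were left out. All 39 samples came from 11-week-old male mice homozygous for a Bmal1 allele (gene symbol Arntl) with loxP sites around exon 8, line B6.129S4(Cg)-Arntltm1Weit/J. The 18 samples called KO also carried 129;FVB-Tg(PTH-cre)4167Slib/J, a Cre recombinase driven by the human PTH promoter, and the 21 called WT came from littermates without Cre. WT numbered 3, 4, 2, 3, 5 and 4 samples and KO numbered 3, 3, 3, 2, 3 and 4 at 0, 4, 8, 12, 16 and 20 h after lights on (zeitgeber time, ZT). Each sample pooled the glands of 2 mice, so p-values measure the spread between such pools. Cre acts in the parathyroid only, per the labels, so other tissue in a KO sample keeps Bmal1.

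Potassium channels set the resting membrane potential and end action potentials, voltage-gated sodium channels start them, and voltage-gated calcium channels let calcium in when the membrane is depolarized. Most pores work with auxiliary subunits that carry them to the membrane or change their gating. Parathyroid cells are unusual among endocrine cells because a rise in extracellular calcium, sensed by the calcium-sensing receptor Casr, lowers hormone release.

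The libraries held 38111766 to 68938704 counts (median 55836787), of which the channel genes took 0.101 to 0.166%. Pth, Casr, Gcm2 and Chga, which define the tissue, were at or above 272.8 CPM (counts scaled per 1e6 of the library) in every library. Arntl itself was 22.5 ± 12.2 CPM (SD, n = 21) in WT and 16.8 ± 6.24 (SD, n = 18) in KO, a log2 fold change of -0.25 (edgeR quasi-likelihood test, adjusted p = 0.465). A count over the whole gene does not see the loss of 1 exon, and therefore does not check the labels. Cry1 was higher in KO, with a log2 fold change of 1.30. Other tissue came along with the glands in varying amounts. The summed level of 12 thyroid follicle markers ran from 2.17 to 61716 CPM in WT and from 4.89 to 33284 in KO, and that of 12 lymphoid markers from 6.85 to 1306 in WT (median 9.90) and from 8.59 to 543 in KO (median 24.0). In such bulk samples, fewer cells of a type and less RNA per cell cannot be told apart.

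The windows around the transcription start are shown for the channel genes on which the results turn, namely the leading pair by level (Kcng4 and Kcnj2) and the sodium channel genes Scn4a and Scn4b, which differed by genotype. Each runs from 250 bases before to 50 bases after the start, 5′ to 3′ on the gene's strand, from RefSeq on GRCm38.p6. Capitals mark the letters CACGTG, the E-box that the Bmal1 protein and its partners are known to bind. The positions are chr8:119635631-119635930 on the minus strand for Kcng4, chr11:111065914-111066213 on the plus strand for Kcnj2, chr11:106349341-106349640 on the minus strand for Scn4a, and chr9:45138374-45138673 on the plus strand for Scn4b.
Kcng4: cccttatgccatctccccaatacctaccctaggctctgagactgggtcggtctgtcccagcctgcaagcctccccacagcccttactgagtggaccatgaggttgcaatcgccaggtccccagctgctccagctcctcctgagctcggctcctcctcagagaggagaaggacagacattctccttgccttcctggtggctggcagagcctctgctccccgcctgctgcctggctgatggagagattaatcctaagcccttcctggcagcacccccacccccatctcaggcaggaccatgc
Kcnj2: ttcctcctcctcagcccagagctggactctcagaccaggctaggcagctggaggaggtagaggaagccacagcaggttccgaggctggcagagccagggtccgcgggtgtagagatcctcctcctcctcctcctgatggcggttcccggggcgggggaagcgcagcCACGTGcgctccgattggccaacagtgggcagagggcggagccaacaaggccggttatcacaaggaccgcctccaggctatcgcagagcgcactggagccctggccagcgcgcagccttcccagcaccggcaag
Scn4a: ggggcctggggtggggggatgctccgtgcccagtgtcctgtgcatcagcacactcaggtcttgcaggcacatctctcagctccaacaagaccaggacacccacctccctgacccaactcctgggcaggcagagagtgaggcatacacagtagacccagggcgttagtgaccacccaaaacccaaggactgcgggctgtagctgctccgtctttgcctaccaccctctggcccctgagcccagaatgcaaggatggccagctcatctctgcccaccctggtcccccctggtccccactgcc
Scn4b: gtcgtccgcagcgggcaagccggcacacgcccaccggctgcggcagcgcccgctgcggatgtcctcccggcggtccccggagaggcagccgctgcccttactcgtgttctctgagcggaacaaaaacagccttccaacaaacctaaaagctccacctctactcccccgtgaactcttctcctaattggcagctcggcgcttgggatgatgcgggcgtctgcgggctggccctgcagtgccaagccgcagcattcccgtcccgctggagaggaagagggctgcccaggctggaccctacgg

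The window of Kcnj2 held CACGTG once, with its first base at position -84 from the start, and the other 3 windows held none. The annotated Scn4a gene spans chr11:106317545-106365559, so its window lies around a start inside the gene and not at its 5′ end. The RefSeq table gave 136 windows for 100 of the channel genes. CACGTG was found in 7 of these windows (5.15%), against 7.15% of all 32851 windows in the table, and the 7 belonged to Kcnab1, Kcne4, Kcnh4, Kcnj2, Kcnk5 and Kcnn4. The variant CACGTT, read on both strands like the other motifs, was in 3.68% of channel windows against 4.69% of all. TTATGNAA, the D-box, was in 0.735% against 3.39%, and TAGGTCA, the core of a ROR element, was in 0.735% against 2.61%. No channel window held the cAMP response element TGACGTCA, which was in 1.79% of all windows. Of the 7 genes called by genotype below, Cacna1h and Kcnab3 had no window in the table, and the 9 windows of the other 5 held none of these motifs.

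The channel messages of the gland were dominated by a few potassium channel genes. Of the 137 genes, 54 had a mean of at least 1 CPM, 20 of at least 10 CPM and 7 of at least 50 CPM, while 41 were below 0.1 CPM. Counts were present in all 39 libraries for 68 of them, and Cacng2 had none in any. Levels of different genes were compared as CPM per kilobase of exon (CPM per kb), since longer messages yield more reads. On that scale Kcng4 and Kcnj2 together made up 47.4% of the summed level of all 137, and the 6 highest made up 74.8%.

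Kcng4 encodes a silent potassium channel subunit, one that forms no channel alone and is known to join subunits of the Kv2 type. It reached 76.4 ± 15.3 CPM per kb (SD, n = 39), and in CPM ran from 179.7 to 393.5 in WT (median 273.7) and from 244.9 to 425.2 in KO (median 297.3). The genotypes overlapped over most of that range. Kcnb2, a subunit of that type, had a mean of 0.078 CPM and counts in 21 libraries.

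Kcnj2, a strong inward rectifier that holds the membrane near the potassium equilibrium potential, followed at 65.3 ± 8.84 CPM per kb. It ran from 219.3 to 463.9 CPM in WT (median 355.2) and from 278.6 to 430.3 CPM in KO (median 358.4). The difference between Kcng4 and Kcnj2 per kb was within the spread of Kcng4 over libraries. Kcnk1, a two-pore leak channel, came next at 34.1 ± 9.06 CPM per kb, and Kcna1, a voltage-gated channel that opens at low voltages, at 19.7 ± 2.97. Kcna1 was also the steadiest of the 20 genes at 10 CPM or more, its highest library being 1.89 times its lowest.

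Scn4b, an auxiliary sodium channel subunit, was at 14.8 ± 3.77 CPM per kb, and Kcnh3, a voltage-gated channel of the ether-a-go-go family, was at 13.3 ± 4.70. These overlapped across libraries. Behind them stood Cacng5, which belongs to a family of AMPA receptor regulators, at 8.78 CPM per kb. Cacna1d, an L-type calcium channel pore that opens at less depolarized voltages than other L-type pores, was at 5.58. Scn2b, another sodium channel auxiliary subunit, had 4.71 CPM per kb.

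**Figure D1:**
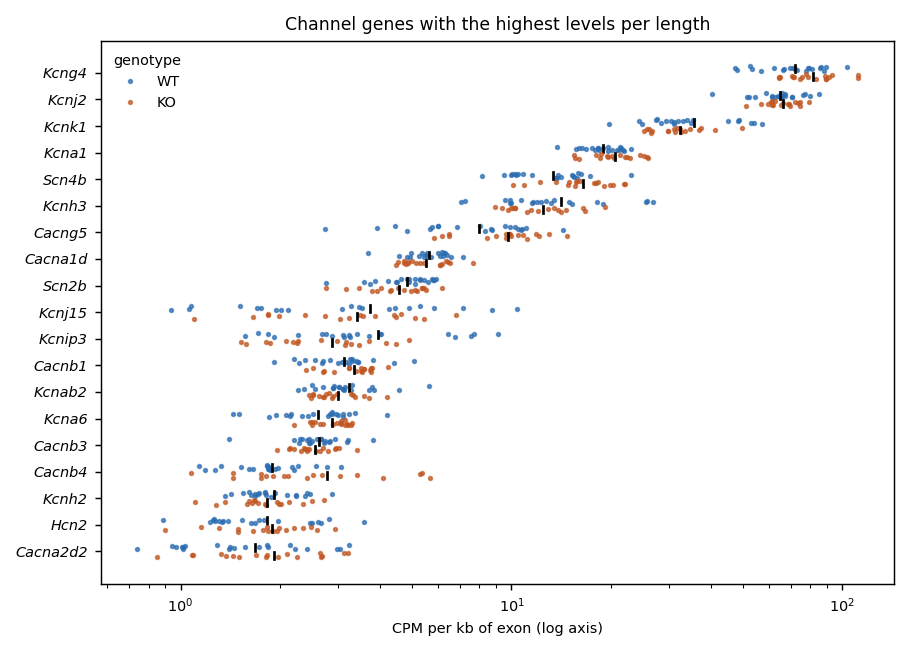
Levels of 19 of the 20 channel genes with the highest mean CPM per kilobase of exon (log axis), with a dot for each of the 39 libraries and black ticks for the means of WT and KO. Kcng4 and Kcnj2 lead at 76.4 and 65.3 CPM per kb, and the last gene shown, Cacna2d2, is at 1.79.

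Also among the highest 20 were Kcnj15 (3.59 CPM per kb), Kcnip3 (3.45), Cacnb1 (3.22), Kcnab2 (3.11), Kcna6 (2.73), Cacnb3 (2.58), Cacnb4 (2.29), Kcnh2 (1.87), Hcn2 (1.85) and Cacna2d2 (1.79). Kcnj15 is an inward rectifier, Kcnip3 a calcium-binding potassium channel partner, and Kcnab2 a cytoplasmic beta subunit. Kcnj15 varied most among genes at 10 CPM or more, from 5.89 to 65.8 CPM. Of those 20 genes at 10 CPM or more, 13 differed by less than 3 times between their lowest and highest libraries. Lengths taken from the longest transcript kept 19 of the highest 20 and exchanged Scn4b and Kcnh3.

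Calcium channel pores were led by Cacna1d, which ran from 46.4 to 90.1 CPM in WT (median 70.2) and from 56.4 to 96.4 CPM in KO (median 65.9). The T-type pores Cacna1g and Cacna1h were at 0.488 and 0.386 CPM per kb, and Cacna1a, the pore of P/Q-type channels, was at 0.271. Cacna1c, the L-type pore of heart and smooth muscle, was at 0.127 CPM per kb. Per kb, Cacna1d was above all 9 other pores of its family. Cacna1e, Cacna1f, Cacna1s, Cacna1b and Cacna1i were at 0.043, 0.037, 0.029, 0.012 and 0.0093 CPM per kb. The 4 calcium channel beta subunits were all at 10 CPM or more, with Cacnb2 at 16.0 CPM.

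Sodium channel pores were led by Scn7a, an atypical pore that responds to extracellular sodium, at 1.57 CPM per kb. The auxiliary subunits Scn4b and Scn2b stood above it by the same measure.

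In the other potassium channel families the leading genes were few and low. Kcnn1, a small-conductance calcium-activated channel, had 8.19 CPM. Kcnq1 led its family at 2.08 CPM and Kcnma1, the large-conductance calcium-activated channel, was at 1.87 CPM with a range from 0.114 to 6.48. Kcne4, a small auxiliary subunit, was at 1.26 CPM. Below 1 CPM were the leading genes of the sodium-activated (Kcnt2, 0.714), transient A-type (Kcnd3, 0.358) and large-conductance beta (Kcnmb1, 0.129) families.

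The genotype comparison asked which channels differ when Bmal1 is deleted in the gland. Over all 6 times, 112 channel genes passed the low-count filter and 7 of them passed the test, 5 higher and 2 lower in KO (edgeR quasi-likelihood test with time as a factor, Benjamini-Hochberg adjusted p under 0.05 over all genes). That is 6.25% of the channel genes tested, near the background of 7.69% among all 18661 genes, of which 3.58% were higher and 4.11% lower. The median log2 fold change was -0.01 over the channel genes and 0.00 over all genes. Before adjustment, 21 channel genes had p under 0.05. The share of all genes at that unadjusted threshold was not counted, here or in the tests below.

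**Figure D2:**
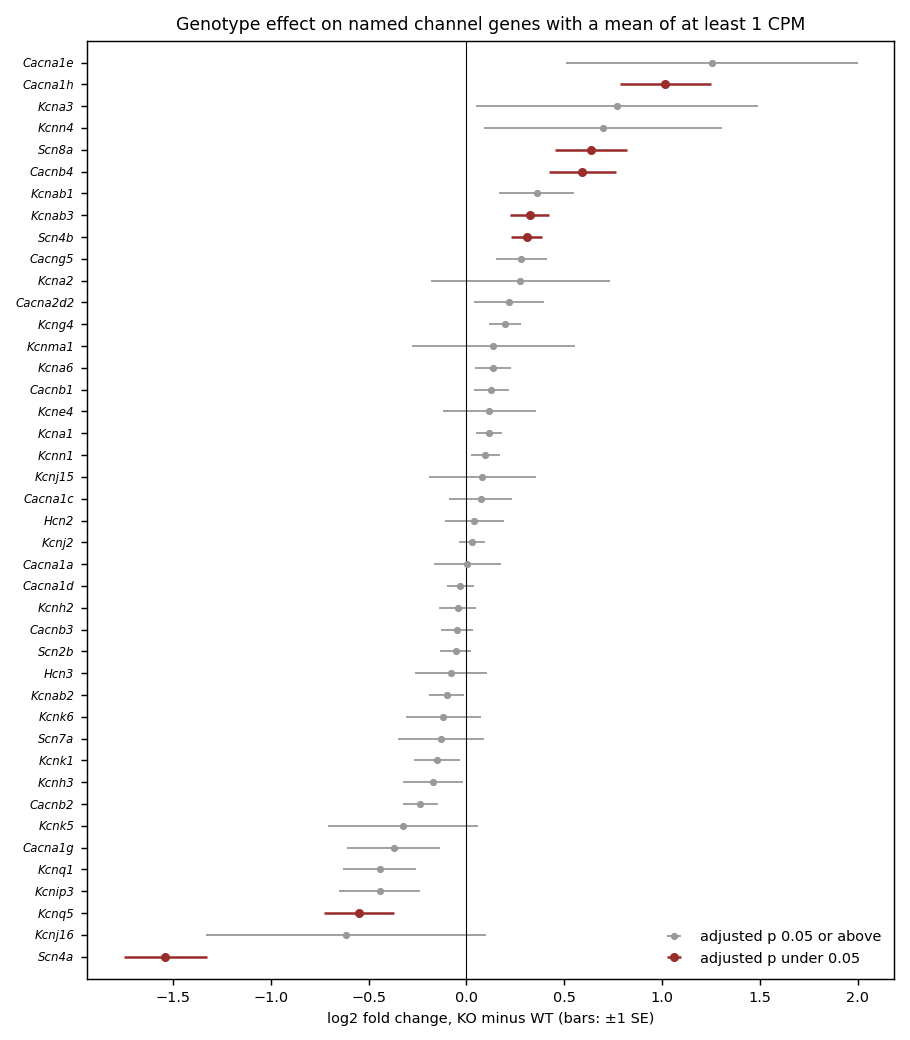
Log2 fold change, KO minus WT, with 1 SE, of the tested channel genes named in the text that have a mean of at least 1 CPM, red where the adjusted p is under 0.05. Of the genes shown, Scn4a lies lowest at -1.54. Cacna1e lies highest at 1.26 with a wide error and did not pass, the highest called gene is Cacna1h at 1.02, and most others lie near 0.

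Scn4a, the sodium channel pore known from skeletal muscle, had the larger of the 2 called decreases. It ran from 0.771 to 6.79 CPM in WT (median 2.93) and from 0.403 to 2.24 CPM in KO (median 1.05). The groups overlapped, with the KO median near the lower end of WT. The mean was 3.22 ± 1.60 CPM (SD, n = 21) in WT and 1.12 ± 0.519 (SD, n = 18) in KO, and the log2 fold change was -1.54 with an SE of 0.21 (edgeR, adjusted p = 4.39e-06). Of 12 skeletal muscle markers, 1 passed the genotype test, Myh1, a fast myosin heavy chain, which fell from 2.74 to 1.94 CPM (log2 fold change -0.47 ± 0.14, adjusted p = 0.0337, edgeR). The median log2 fold change of the list was -0.44, with Actn3 at -0.42 ± 0.17 and Myh4 at -0.65 ± 0.44, neither of which passed. Several contractile and metabolic genes of muscle fibres were close to 0, with Ckm at 0.080 CPM in WT and 0.061 in KO, Tnnc2 at 0.064 and 0.039, and Acta1 at 0.322 and 0.211. Of the list, 8 had a mean under 1 CPM. Their sum, mostly Actn3 and Myh4, ran from 99.4 to 610 CPM in WT and from 155 to 328 in KO. With muscle, thyroid, lymphoid, fat and Schwann cell marker scores in the fit, the log2 fold change of Scn4a was -1.33 ± 0.23 (SE, adjusted p = 1.78e-04, edgeR). The part of muscle tissue in the result was not tested.

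Cacna1h, a T-type calcium channel pore that opens near the resting potential, moved the other way. It ran from 0.578 to 6.21 CPM in WT (median 2.08) and from 1.31 to 11.2 CPM in KO (median 5.55). Most KO libraries lay above all WT libraries but 1. The means were 2.53 ± 1.44 and 5.20 ± 2.35 CPM, a log2 fold change of 1.02 ± 0.23 (adjusted p = 0.00388, edgeR). With the 5 marker scores in the fit it was 1.30 ± 0.24. Smooth muscle also expresses T-type channels, and 2 of its 8 markers rose in KO, Synpo2 from 8.39 to 20.6 CPM and Des from 5.65 to 7.90. Acta2 (8.87 and 9.34 CPM) and Myh11 (16.3 and 15.7 CPM), which define it, did not pass. The summed level of the list ran from 24.4 to 110 CPM in WT and from 42.7 to 90.3 in KO, and its part in the result was not tested.

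The other rises were smaller. Scn4b ran from 40.5 to 114.3 CPM in WT (median 68.2) and from 50.4 to 109.5 in KO (median 79.4), with a log2 fold change of 0.31 ± 0.08 (adjusted p = 0.0110, edgeR). Scn8a, a sodium channel pore known from the nodes of myelinated axons, had medians of 1.55 and 2.21 CPM and a log2 fold change of 0.64 ± 0.18 (adjusted p = 0.0248, edgeR). Among markers of nerve tissue, all 10 neuron genes were under 1 CPM on average. Their sum ran from 0.777 to 5.89 CPM in WT and from 0.761 to 4.71 in KO. The summed level of 10 Schwann cell markers ran from 35.7 to 57.9 CPM in WT and from 40.5 to 60.1 in KO, and 1 of the 9 tested, Ncmap, rose.

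Cacnb4, a beta subunit that helps calcium channel pores reach the membrane, ran from 10.2 to 27.3 CPM in WT (median 16.5) and from 9.61 to 51.0 CPM in KO (median 20.3). Its KO values were spread widely, 5 of them above all WT values. The log2 fold change was 0.59 ± 0.17 (adjusted p = 0.0261, edgeR), and without KO ZT16 replicate 2 or without WT ZT8 replicate 1 it missed the threshold. Exons of Cacnb4 overlap those of another annotated gene over 16.0% of their length. Kcnab3, a cytoplasmic beta subunit, had medians of 2.91 and 3.44 CPM and a log2 fold change of 0.32 ± 0.10 (adjusted p = 0.0378, edgeR), which missed the threshold when any of 10 single libraries was left out.

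Kcnq5, a pore of the slow potassium current that dampens repeated firing, was the other gene lower in KO. It ran from 0.637 to 2.45 CPM in WT (median 1.32) and from 0.319 to 1.63 CPM in KO (median 0.811), which overlapped broadly. The log2 fold change was -0.55 ± 0.18 (adjusted p = 0.0499, edgeR), and in 31 of 39 fits with 1 library left out it missed the threshold. Without KO ZT20 replicate 1, Cacnb2 was also called lower. Scn4a, Cacna1h and Scn4b passed in all 39 such fits, and Scn8a in all but that without KO ZT12 replicate 2.

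**Figure D3:**
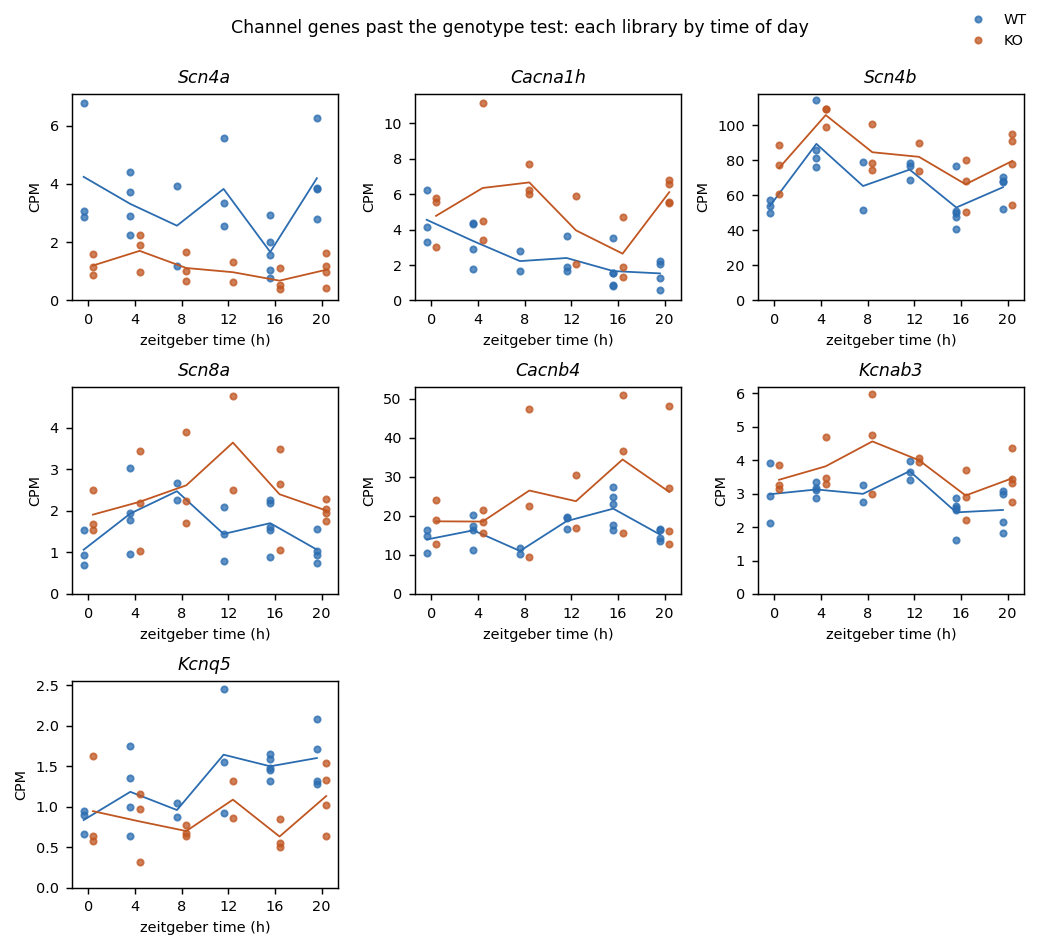
CPM of the 7 channel genes that passed the genotype test, by zeitgeber time (h), with a point for each library and lines through the group means of WT and KO. Scn4a is lower in KO at every time by group mean and Cacna1h higher at every time, with the widest gap for Cacna1h at ZT20.

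None of the 12 lymphoid markers passed the genotype test, although their summed level had the higher median in KO. Leaving out the 12 libraries richest in them left Scn4a and Cacna1h as the only called channel genes, while calls over all genes fell to 237 higher and 217 lower. Putting the 5 marker scores in the fit instead gave 10 higher and 2 lower channel genes. The share of all genes called in that fit is not given here, so these counts do not show an excess among channel genes. Of the 7 genes called without the scores, Scn4a, Kcnq5, Cacna1h and Scn4b were called in that fit too, while Kcnab3, Scn8a and Cacnb4 missed the threshold (adjusted p = 0.0523, 0.0811 and 0.0934, edgeR). Genes called with the scores in the fit but not without them included abundant ones: Kcng4 had a log2 fold change of 0.28 ± 0.08, Kcna1 of 0.21 ± 0.06 and Cacng5 of 0.50 ± 0.12. Without the scores these were 0.20, 0.12 and 0.28, with adjusted p of 0.158, 0.319 and 0.203 (edgeR).

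The other highly expressed channel genes did not pass the genotype test. Kcnj2 had a log2 fold change of 0.03 ± 0.07, Kcnk1 of -0.15 ± 0.12, Kcnh3 of -0.17 ± 0.15 and Cacna1d of -0.03 ± 0.07. Among the calcium channel pores other than Cacna1h, Cacna1a was at 0.00 ± 0.17, Cacna1c at 0.07 ± 0.16 and Cacna1g at -0.37 ± 0.24. Cacna1b and Cacna1i, both sparse, were at 0.48 ± 0.62 and 0.38 ± 0.70, and Kcnma1 was at 0.14 ± 0.42. Cacna1e was at 1.26 ± 0.75 and varied widely, from 0 to 6.60 CPM in WT and from 0.032 to 8.07 in KO. At such standard errors a change of 1 log2 unit in Cacna1b, Cacna1e or Cacna1i could not be told from none.

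Other genes that move ions across membranes were read beside these. In the list of store-operated entry and calcium release, 1 of 14 tested genes rose and none fell, namely Itpr1, the inositol trisphosphate receptor that releases calcium from the endoplasmic reticulum. It had a mean of 802 CPM in WT and 1108 in KO, a log2 fold change of 0.47 ± 0.08 (adjusted p = 1.56e-04, edgeR), and Tpcn1 of the same list was at 0.20 ± 0.07. In the list of TRP and mechanosensitive channels, 2 of 22 rose and none fell. Trpm4, a calcium-activated cation channel, went from 57.0 to 73.2 CPM (log2 fold change 0.37 ± 0.06, adjusted p = 5.62e-05 by edgeR), and Trpm3, a heat- and steroid-sensitive cation channel, from 61.7 to 76.6 (0.33 ± 0.08, adjusted p = 0.00754 by edgeR). None of 16 calcium pumps and exchangers, 11 sodium-potassium pump genes, 19 chloride channels and 7 epithelial or acid-sensing sodium channels passed in either direction. The smallest p-values there included those of Atp2c1, Slc24a2, Atp1b2, Clcn3, Lrrc8b, Asic1 and Scnn1g. Atp1b2, a sodium pump beta subunit, was at 0.39 ± 0.13 (adjusted p = 0.0658, edgeR).

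At single times few genes of any kind passed. None of the 112 channel genes did at ZT0, ZT4, ZT8, ZT12 or ZT16, against backgrounds of 0.0643%, 0.075%, 0.0589%, 0.161% and 0.182% of all genes (edgeR). Unadjusted p was under 0.05 for 4, 4, 10, 12 and 15 channel genes at those times, a threshold at which the share of all genes was not counted. DESeq2 called no channel gene at those times either. The smallest p-values belonged to Scn4a at ZT0 and ZT12, Kcnh7 at ZT4, Hcn3 at ZT8 and Kcng4 at ZT16.

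At ZT20, 2 channel genes passed against a background of 0.89%. Unadjusted p was under 0.05 for 17, and the share of all genes at that looser threshold was not counted. Scn4a was at 3.83, 3.87, 2.81 and 6.28 CPM in the 4 WT samples and at 0.965, 1.64, 1.18 and 0.425 in the 4 KO samples. All KO values lay below all WT values, and the log2 fold change was -2.00 ± 0.47 (adjusted p = 0.0301, edgeR). Cacna1h was at 2.20, 0.578, 1.25 and 2.08 CPM in WT and at 5.50, 5.56, 6.59 and 6.80 in KO. All KO values lay above all WT values, with a log2 fold change of 1.99 ± 0.48 (adjusted p = 0.0385, edgeR). Lymphoid marker scores at ZT20 ran from -3.18 to 2.49 in WT and from -0.44 to 3.17 in KO (mean log2 CPM). Both genes passed at ZT20 under all 4 alternatives run for single times, among them a fit with the 5 marker scores. The log2 fold change ran from -2.04 to -1.99 for Scn4a and from 2.00 to 2.11 for Cacna1h. The part of lymphoid tissue by itself in these 2 results was not tested. These calls rest on few libraries. Scn4a missed the threshold without KO replicate 1, 3 or 4 or WT replicate 2, 3 or 4 of that time, with adjusted p from 0.0546 to 0.125, and Cacna1h without KO replicate 1, 2 or 3 or the same WT replicates, with adjusted p from 0.0579 to 0.143 (edgeR). The number of channel genes called at ZT20 was 0 without KO replicate 1 or WT replicate 2, 3 or 4. It was 1 without KO replicate 2 (Scn4a) or replicate 3 (Cacna1c), and 4 without WT ZT16 replicate 1.

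Cacna1c came next at ZT20, with 1.80, 1.98, 0.798 and 2.27 CPM in WT and 3.48, 4.61, 2.52 and 4.85 in KO, which do not overlap. Its log2 fold change was 1.16 ± 0.30 (adjusted p = 0.0542, edgeR). For Scn4a, Cacna1h and Cacna1c alike, the share of all genes without overlap at ZT20 was not counted. DESeq2 called 5 channel genes at that time, adding Cacna1c, Kcnj13 and Kcna5. Exons of Kcnj13 overlap those of Gigyf2 on the opposite strand over 49.1% of their length. Whether the genotype effect of Scn4a or Cacna1h differs between ZT20 and other times was not tested.

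Time of day was examined as a 24 h cosine within each genotype. None of 111 channel genes passed in WT, where 0.248% of all genes did, and 13 had an unadjusted p under 0.05 (edgeR). None of 104 passed in KO, against 0.0779% of all genes, with 7 at an unadjusted p under 0.05. The difference in rhythm between genotypes passed for none of 112, against 0.0161% of all genes, with 4 at an unadjusted p under 0.05. For none of these tests was the share of all genes at the unadjusted threshold counted. DESeq2 called 1 in WT, Kcng4, and none in the other tests, and edgeR called Scn11a in WT without WT ZT16 replicate 2 or 5.

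Kcng4 in WT had an amplitude of 0.26 ± 0.07 (log2, from mean to peak, SE) with a fitted peak at ZT 3.46 (adjusted p = 0.181, edgeR). Its WT group means were 312.0, 328.3, 261.6, 277.7, 213.6 and 266.6 CPM from ZT0 to ZT20, and its KO means were 306.6, 328.4, 270.5, 292.9, 323.4 and 331.3. The gap between genotypes was widest at ZT16, where the 5 WT samples had 216.7, 264.6, 203.6, 200.4 and 182.8 CPM and the 3 KO samples had 347.6, 267.7 and 354.9. These do not overlap, but the difference did not pass (log2 fold change 0.60 ± 0.18, adjusted p = 0.243, edgeR). At that time 0.182% of all genes passed, and the share of all genes without overlap was not counted. WT replicates 4 and 5 and KO replicate 1 at ZT16 are the samples for which another label gives ZT 20. The difference in the rhythm of Kcng4 had an unadjusted p of 0.0345 and an adjusted p of 1 (edgeR).

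**Figure D4:**
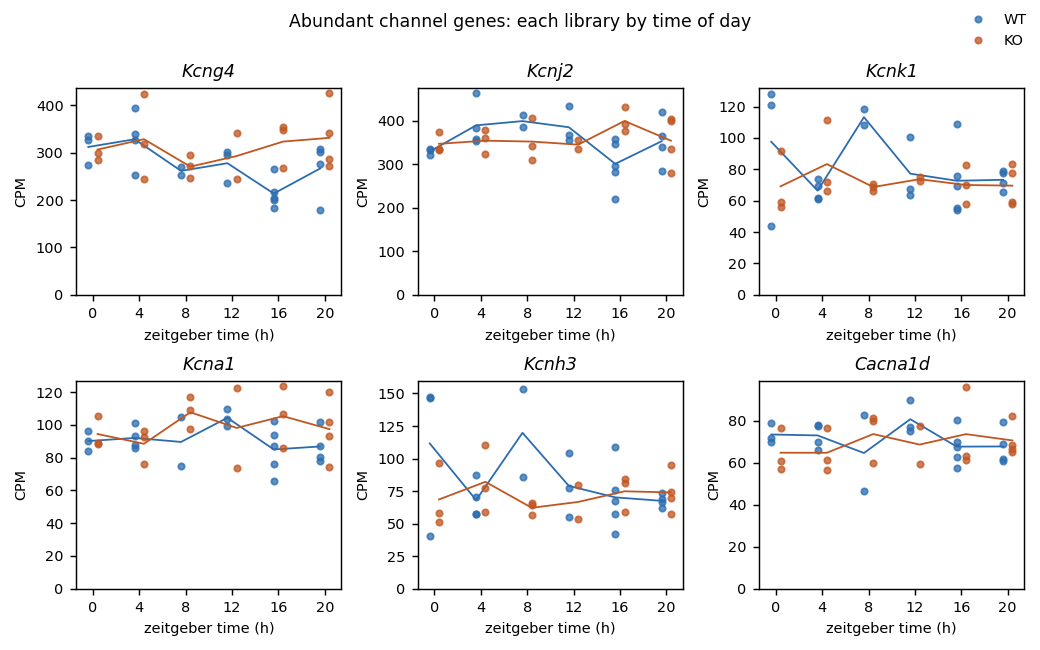
CPM of Kcng4, Kcnj2, Kcnk1, Kcna1, Kcnh3 and Cacna1d by zeitgeber time (h), with a point for each library and lines through the group means of WT and KO. No rhythm passed the test, and for Kcng4 the WT mean is lowest at ZT16, at 213.6 CPM.

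The smallest p-values in WT other than that of Kcng4 belonged to Scn11a and Kcnmb2 (adjusted p = 0.0821 and 0.137, edgeR), with counts in only 13 and 14 of 39 libraries. In KO they belonged to Kcnk6, a two-pore channel whose fitted amplitude of 0.55 ± 0.15 peaked at ZT 20.4 (adjusted p = 0.390), Cacng7 (0.82 ± 0.17, ZT 23.9, adjusted p = 0.442) and Cacna1c (0.46 ± 0.12, ZT 19.8, adjusted p = 0.456, all edgeR). For the difference between genotypes they belonged to Scn11a, Hcn3 and Cacna1c, each with an adjusted p of 1.

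Many channel genes rose and fell with the other tissue in the samples. In a fit of 5 marker scores, genotype and time together, 12 of 112 channel genes were associated with the thyroid follicle score, all positively, which is 10.7% against a background of 2.98% (2.81% positive). The strongest was Kcnj16, an inward rectifier known from epithelia, which ran from 0 to 32.9 CPM in WT (median 3.55) and from 0 to 18.3 in KO (median 3.48). It had counts in 35 libraries and rose by 0.85 ± 0.10 log2 units per unit of the score (adjusted p = 9.74e-07, edgeR). Cacng1 (0.54 ± 0.13), Cacng4 (0.53 ± 0.08) and Kcnk5 (0.36 ± 0.04), a leak channel that responds to alkaline pH, came next. Among the abundant genes the slopes were shallower, with 0.18 for Kcnip3, 0.12 for Kcnh3 and 0.07 for Kcnk1, while Kcng4 (0.04), Kcnj2 (-0.01) and Kcna1 (0.00) did not pass.

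The lymphoid score was associated with 13 channel genes, 11 positively and 2 negatively, 11.6% against a background of 6.55% (5.86% positive). Kcna3 and Kcnn4, the voltage-gated and calcium-activated potassium channels known from T lymphocytes, rose by 0.76 ± 0.09 and 0.66 ± 0.07 log2 units per unit of the score (adjusted p = 1.87e-07 and 1.85e-08, edgeR). Kcna3 ran from 0 to 13.6 CPM in WT (median 0.343) and Kcnn4 from 0.076 to 20.8 (median 0.729). Most libraries thus had little of either, and a few had much. Scn11a (1.01 ± 0.27) and Kcnq3 (0.82 ± 0.22) had steeper slopes at lower levels, and Kcna1 (-0.06 ± 0.02) and Kcna6 (-0.09 ± 0.03) had negative ones.

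The lymphoid count rests on few libraries: it was 6 without WT ZT16 replicate 3 and 7 without KO ZT0 replicate 3. Fat markers were associated with 2 channel genes, Kcnh3 (-0.19 ± 0.04) and Hcn2 (-0.25 ± 0.05), both negatively, 1.79% against a background of 1.59% (1.39% positive). That count was 5 without KO ZT12 replicate 2. The muscle and Schwann cell scores called none, against backgrounds of 0.0107% and 0.00536% at the same adjusted threshold (edgeR). Unadjusted p was under 0.05 for 15 and 13 channel genes. The share of all genes at that looser threshold was not counted, so these 2 counts show no excess. Kcnk1 was called for the muscle score without KO ZT12 replicate 1. For the Schwann cell score, Kcnh3 was called without any 1 of 6 libraries, WT ZT12 replicate 3 among them, where Kcnip3 was called too.

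**Figure D5:**
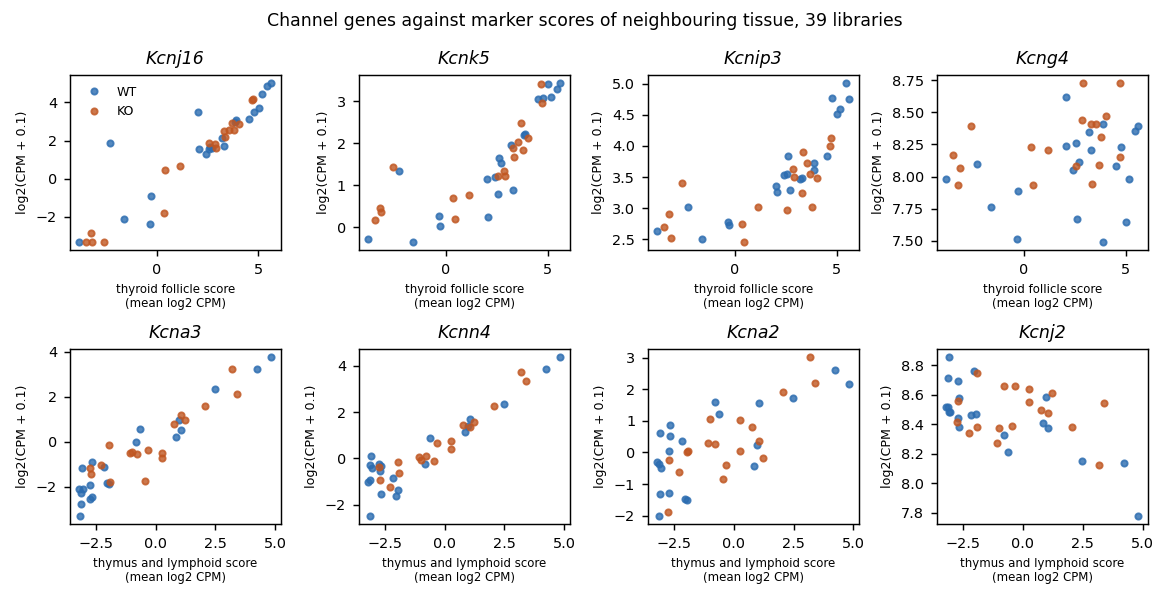
Levels (log2 of CPM plus a small constant) of 4 channel genes against the thyroid follicle score and of Kcna3, Kcnn4, Kcna2 and Kcnj2 against the lymphoid score, a point per library. Kcnj16 and Kcnk5 climb along the thyroid score and Kcna3 and Kcnn4 along the lymphoid score, while Kcng4 and Kcnj2 stay nearly level.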

How the data were processed

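The authors deposited a table of raw counts for the 39 samples, made from libraries of a stranded total RNA kit per the labels' protocols. Tools in the submitters' processing notes are STAR 2.7.8a, featureCounts 2.0.1 and DESeq2 1.30.1, and the build is mm10. Which annotation and strand setting the counting used is not given in the sources at hand, so genes on opposite strands may share reads. Over 10% of the exon length of 10 channel genes overlaps other annotated genes. Even values made up 89.6% of the counts between 1 and 10, which counting both mates of each read pair would give. Of 27179 gene IDs, 25275 (98.0% of counts) matched the RefSeq gene table of GRCm38.p6. Exon lengths came from the annotation on the same build.

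Times were taken from titles. For 3 samples titled ZT16 another label gives ZT 20. Tests used edgeR 4.0.16 under R 4.3.3 (quasi-likelihood, robust, trimmed mean of M-values scaling, low counts filtered by group), adjusted by Benjamini-Hochberg over all genes tested, threshold 0.05. The genotype model held all samples and a 6-level time factor, and single times were contrasts among 12 group means. Rhythms were 2 cosine terms of a 24 h period, and amplitudes came from least squares on log2 CPM (prior count 2). Tissue scores are the mean log2 CPM of a marker list. The tests were checked on simulated counts. Channel genes and lists were chosen with earlier results of these data known. Named genes were those past the threshold, the 20 highest per kb, the leading gene of each family, the calcium channel pores and Kcnma1, the smallest p-values where a test called none, the 4 steepest tissue slopes, and 2 genes from each list of other channels and pumps. Results of some genes are not reported here. Other genes named here were chosen after their values were seen. The 48 pairs of replicates within groups differed by a chi-square of 36.05 to 372.1 per gene, so none were copies. Alternatives included DESeq2 1.42.0, other filters, scalings and covariates, and each library left out.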

Additional observations from a re-analysis of the deposited data

Results flagged for a closer look

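In 3 of 40 sets of 4 or more replicates, 1 library stood apart from the rest of its group, where chance gives about 1 in 20. The sets examined were those of the 7 channel genes called by genotype and of Kcng4, Kcnj2 and Cacna1c. Cacna1h in WT at ZT16 had a highest library of 3.51 CPM against 1.58 CPM for the next. Scn4b in WT at ZT16 had a highest library of 76.6 CPM, above 50.9 CPM for the next. Scn4b in WT at ZT20 had a lowest library of 52.3 CPM, below 67.3 CPM for the next.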

How the results depend on the processing

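Scn4a (log2 fold change -1.58 to -1.33) and Cacna1h (0.98 to 1.30) passed the genotype test under all 11 alternatives. Scn4b passed under 9, Cacnb4 and Kcnab3 under 9, Scn8a under 8 and Kcnq5 under 5. The count of channel genes higher in KO was 10 with 5 tissue scores as covariates, 3 with no time term and 1 without the 12 lymphoid-rich libraries. The count lower in KO was 1 with the 3 doubtful samples placed at ZT20 or left out, with DESeq2 size factors, with no low-count filter, without the lymphoid-rich libraries and with the replicate number as a block. The block also gave 8 channel genes for the lymphoid score. Same-numbered samples did not deviate together as a set (median correlation 0.008, range -0.572 to 0.510, 183 pairs). A median over all pairs cannot exclude that some same-numbered samples were handled together. With each score in a fit of its own, 7, 21 and 26 channel genes were associated with the fat, Schwann cell and lymphoid scores, and at a mean of at least 1 CPM, where fewer genes are tested, 7 with the thyroid and 7 with the lymphoid score. DESeq2 called 1 rhythm in WT and 5 genes at ZT20. By threshold, 96 channel genes reached 0.1 CPM and 20 reached 10 CPM. With 1 library left out, counts ran from 3 to 6 higher and from 1 to 3 lower in KO, from 0 to 4 at ZT20, from 0 to 1 for rhythm in WT, from 9 to 13 for the thyroid, 6 to 16 for the lymphoid, 2 to 5 for the fat, 0 to 2 for the Schwann cell and 0 to 1 for the muscle score. The count of 3 higher in KO arose without KO ZT16 replicate 2 or WT ZT8 replicate 1. No direction turned among called genes. The cause of these shifts was not tested. For most of these alternatives the share of all genes called is not given here, so their counts do not show what is particular to channel genes. Leaving out libraries for single times and scores, and the longest transcript as length, were chosen after seeing the data.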
